A study of Mus musculus with 12 samples.

Results

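The late granule genes of maturing neutrophils are 10 genes, *Ltf*, *Lcn2*, *Camp*, *Ngp*, *Mmp8*, *Cd177*, *Mmp9*, *Retnlg*, *S100a8* and *S100a9*, taken from the deposited RNA-Seq table of mouse BM by their gene symbols. All 10 were found among the 12199 genes of that table, and all 10 passed the filter on low counts that left 12175 genes for testing. There were 11 libraries, of which 3 were WT, 3 DF, 3 TF and 2 TFD. WT mice were labelled as wild type, DF mice carried Dnmt3aFlox/+ with MxCre and Flt3 ITD/+, TF mice carried Tet2+/- and Flt3ITD/+, and TFD mice carried Tet2+/-, Flt3ITD/+, Dnmt3aFlox/+ and MxCre. Every mouse was on the C57BL/6 strain, and every mouse, WT included, had received poly(I:C) as a young adult. Poly(I:C) induces the interferon-responsive MxCre transgene, which is meant to delete the floxed *Dnmt3a* allele in the cells that respond, whereas Tet2+/- is carried from the germline. How far the deletion went was not measured here. MxCre is labelled only for DF and TFD, so the Cre transgene and the floxed *Dnmt3a* allele cannot be told apart. The samples were described by the labels as mononuclear cells of whole BM and by the methods of the study as whole BM cells, and which of these was used for the RNA could not be settled. A mononuclear preparation removes many of the mature granulocytes, which bears on the levels of neutrophil genes in every genotype. Nothing in the labels says that each library came from a separate mouse, so p values measure the spread between these samples. The comparison of the 4 genotypes asks how the pairs of heterozygous alleles and their combination alter gene expression in BM.

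Neutrophils form in the BM, and they fill their granules in a fixed order. Promyelocytes make the primary (azurophil) granules with myeloperoxidase and serine proteases, myelocytes and metamyelocytes make the specific granules with lactoferrin, lipocalin 2 and cathelicidin, and band cells make the gelatinase granules. The mRNA of each granule protein is made mainly at its own stage, which makes these genes markers of how far neutrophils in a tissue have matured. S100A8 and S100A9 form calprotectin, a complex that binds calcium and sequesters zinc and manganese in the cytosol of neutrophils, and monocytes also make it. C/EBP epsilon, encoded by *Cebpe*, is the transcription factor best known for switching on the specific granule genes, and GFI1 is a repressor needed for the neutrophil lineage. In RNA from a whole tissue, fewer neutrophils at this stage and less RNA per neutrophil cannot be told apart.

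Libraries held 8274153 to 15900904 counts in all. Total counts of *Dnmt3a* were not called different from WT in DF or TFD (log2 fold changes of -0.15 and 0.29, adjusted p = 0.578 and 0.382), nor were those of *Tet2* in TF or TFD (0.20 and 0.25, adjusted p = 0.33 and 0.318). In the genotypes without the altered allele, *Dnmt3a* was called higher in TF (0.58, adjusted p = 0.0444) and *Tet2* in DF (0.49, adjusted p = 0.0261). A count over the whole gene does not resolve the loss of 1 allele, and it does not check these labels. WT replicate 3, TF replicate 3 and TFD replicate 2 held between 30976 and 42152 reads of *Xist*, the RNA of the inactive X chromosome, and the other 8 libraries held fewer than 10000, with no library of the first kind in DF. The same 3 libraries held 3 to 12 reads of *Ddx3y*, a gene of the Y chromosome, and the other 8 held 1040 to 2132. Female mice express *Xist* and lack *Ddx3y*, but the labels used here give no sex. In TFD, where the 2 libraries differ in these genes, such a difference and any other between the 2 libraries cannot be told apart. TFD replicate 2 stood apart from TFD replicate 1. All 10 late granule genes were lower in it, by a median of 0.90 and by up to 1.30 on the log2 CPM scale (*S100a8*), and *Ngp* was closest between the 2 libraries, with a difference of 0.47. In TF replicate 3, all 10 were below the other TF libraries, by a median of 0.30. In WT replicate 3, 7 of 10 were below the other WT libraries, and *Camp*, *S100a8* and *S100a9* were not.

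The 10 genes took a large share of each library, between 2.39% and 7.79% of all counts. In WT they held 5.56%, 6.46% and 5.40% of counts in replicates 1 to 3. In DF they held 5.79%, 6.08% and 7.79%, in TF 4.31%, 4.97% and 3.81%, and in TFD 4.89% and 2.39%. The means were 5.80% ± 0.573 (SD, n = 3) in WT, 6.55% ± 1.08 (n = 3) in DF, 4.36% ± 0.584 (n = 3) in TF and 3.64% ± 1.77 (n = 2) in TFD. Every TF and TFD library lay below every WT library, and WT and DF overlapped. *S100a8* and *S100a9* alone made up 3.16%, 3.71% and 3.47% of counts in WT, 3.82%, 3.99% and 5.02% in DF, 2.77%, 3.16% and 2.51% in TF, and 2.89% and 1.23% in TFD.

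**Figure D1:**
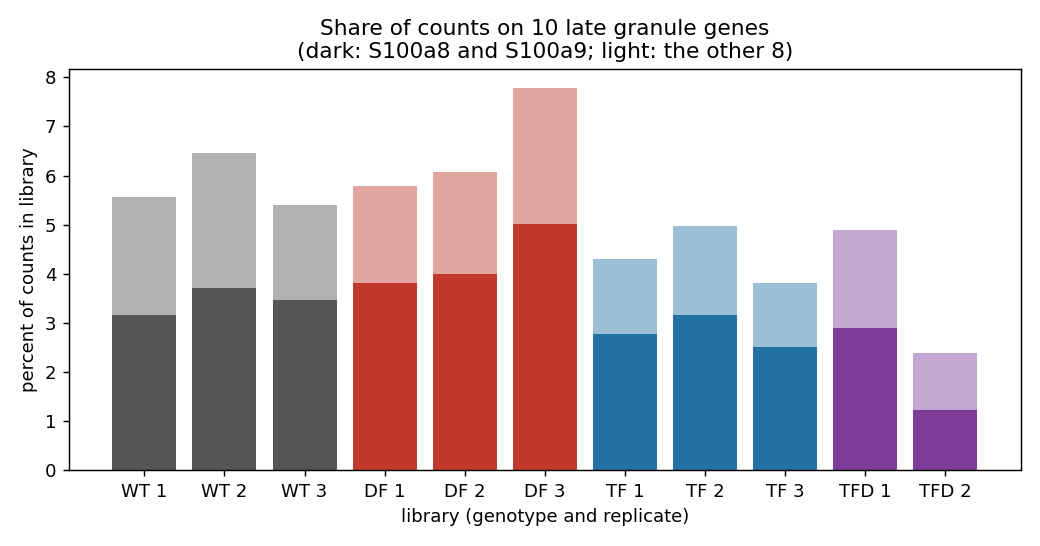
Percent of all counts in each of the 11 libraries that fell on the 10 late granule genes, with *S100a8* and *S100a9* in the dark part of each bar and the other 8 genes in the light part. TFD replicate 2 has the lowest bar (2.39%) and DF replicate 3 the highest (7.79%).

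Levels of different genes were compared per length, as RPKM (reads per kilobase of exon, scaled to library size). In WT, *S100a8* and *S100a9* were highest, at 38300 ± 4390 and 36200 ± 4190 RPKM (SD, n = 3), and their libraries overlapped. *Camp* and *Ngp* followed at 6260 ± 1480 and 5350 ± 1070, again with overlapping libraries. *Ltf* (2640 ± 624), *Lcn2* (2560 ± 499) and *Retnlg* (1770 ± 443) came next, and *Lcn2* overlapped both of its neighbours. *Mmp8* (484 ± 120), *Cd177* (342 ± 69.0) and *Mmp9* (236 ± 43.0) were lowest, and each overlapped the next. The order was the same in TF and TFD, and in DF it differed only in that *Lcn2* (2890 ± 449) stood above *Ltf* (2790 ± 676), whose libraries overlapped.

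*Ltf* (chr9:111019292-111042766, mm10, plus strand, 17 exon blocks) encodes lactoferrin and *Lcn2* (chr2:32384637-32387739, minus strand, 6 exon blocks) encodes lipocalin 2, a pair of specific granule proteins that withhold iron from microbes, the first by binding the metal and the second by binding bacterial siderophores. *Ltf* stood at log2 CPM of 12.87, 13.10 and 12.40 in WT, 12.64, 12.73 and 13.26 in DF, 12.22, 12.39 and 11.87 in TF, and 12.55 and 11.82 in TFD. Every TF library was below every WT and every DF library, the nearest by a narrow margin, while TFD replicate 1 fell inside the WT range. *Lcn2* was measured at 11.17, 11.31 and 10.74 in WT, 11.08, 11.19 and 11.50 in DF, 10.44, 10.51 and 10.33 in TF, and 10.70 and 9.93 in TFD. For *Lcn2* all TF and TFD libraries lay below all WT and DF libraries. *Lcn2* fell in TF (log2 fold change -0.66 ± 0.20 SE, 1.58-fold lower, adjusted p = 0.0249) and in TFD (-0.73 ± 0.23, 1.65-fold lower, adjusted p = 0.0356). The difference of *Ltf* from WT was -0.65 ± 0.25 in TF and -0.59 ± 0.28 in TFD (adjusted p = 0.0591 and 0.14), and neither passed the threshold of 0.05.

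*Camp* (chr9:109847377-109849456, minus strand, 4 exon blocks) encodes the only mouse cathelicidin, an antimicrobial peptide, and *Ngp* (chr9:110419808-110423012, plus strand, 4 exon blocks) encodes neutrophilic granule protein, a relative of the cathelicidins and cystatins. *Camp*, *Ngp* and *Ltf* lie on the same chromosome, with 570351 bases between *Camp* and *Ngp* and 596279 bases between *Ngp* and *Ltf*. The *Camp* levels were 11.56, 12.21 and 11.77 in WT, 11.78, 11.75 and 12.16 in DF, 11.58, 11.79 and 11.41 in TF, and 11.81 and 10.78 in TFD. The genotypes overlapped for *Camp*, and TFD replicate 2 was below every other library. *Ngp* stood at 12.56, 12.88 and 12.30 in WT, 12.21, 12.28 and 12.82 in DF, 11.74, 11.97 and 11.49 in TF, and 12.18 and 11.71 in TFD. The TF libraries were all below the WT and DF libraries, and both TFD libraries were below the WT range as well. Of the 10 genes, *Ngp* had the greatest fall in TF (log2 fold change -0.85 ± 0.22, 1.80-fold lower, adjusted p = 0.00947), and the value in TFD was -0.63 ± 0.25 (adjusted p = 0.0748). *Camp* had differences of -0.27 ± 0.25 in TF and -0.48 ± 0.28 in TFD (adjusted p = 0.418 and 0.229), with a 95% confidence interval in TF from -0.81 to 0.27.

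*Mmp8* (chr9:7558429-7568486, plus strand, 10 exon blocks) encodes neutrophil collagenase of the specific granules, and *Mmp9* (chr2:164948219-164955849, plus strand, 13 exon blocks) encodes gelatinase B, for which the gelatinase granules are named. *Mmp8* measured 10.09, 10.57 and 9.90 in WT, 9.83, 10.16 and 10.71 in DF, 9.56, 9.75 and 9.01 in TF, and 9.75 and 9.02 in TFD. Neither the TF nor the TFD libraries reached the lowest WT library, and the DF libraries overlapped WT. *Mmp8* fell in TF (log2 fold change -0.74 ± 0.27, 1.67-fold lower, adjusted p = 0.0487) and stood at -0.78 ± 0.31 in TFD (adjusted p = 0.0777). *Mmp9*, the gene of the latest granule among the 10, was at 9.76, 9.61 and 9.23 in WT, 9.53, 9.54 and 10.09 in DF, 9.14, 9.33 and 8.98 in TF, and 9.65 and 8.48 in TFD. WT overlapped all 3 mutant genotypes for *Mmp9*, and TFD replicate 1 sat inside the WT range. The differences of *Mmp9* were -0.39 ± 0.26 in TF and -0.37 ± 0.29 in TFD (adjusted p = 0.253 and 0.378).

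*Cd177* (chr7:24743983-24760311, minus strand, 17 exon blocks) encodes a glycoprotein on the membrane of specific granules and on the neutrophil surface, and *Retnlg* (chr16:48872608-48874498, plus strand, 4 exon blocks) encodes resistin-like gamma, a secreted protein of mouse neutrophils. *Cd177* was at 10.09, 9.92 and 9.50 in WT, 10.09, 10.11 and 10.47 in DF, 9.43, 9.71 and 9.25 in TF, and 9.84 and 9.12 in TFD. The TF and TFD libraries overlapped WT and lay below every DF library. The difference of *Cd177* was 0.38 ± 0.21 in DF, -0.38 ± 0.21 in TF and -0.33 ± 0.23 in TFD (adjusted p = 0.168, 0.175 and 0.327). *Retnlg* had levels of 10.10, 10.38 and 9.64 in WT, 9.64, 9.79 and 10.37 in DF, 9.43, 9.65 and 9.07 in TF, and 9.75 and 8.70 in TFD. WT overlapped every mutant genotype for this gene, with TF replicate 2 just above WT replicate 3. Its differences were -0.67 ± 0.28 in TF and -0.75 ± 0.32 in TFD (adjusted p = 0.0817 and 0.102).

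*S100a8* (chr3:90669071-90670034, plus strand) and *S100a9* (chr3:90692630-90695721, minus strand), each in 3 exon blocks, encode the 2 subunits of calprotectin and lie 22595 bases apart. *S100a8* stood at 13.68, 14.01 and 13.91 in WT, 14.17, 14.26 and 14.68 in DF, 13.62, 13.83 and 13.51 in TF, and 13.65 and 12.34 in TFD. Every DF library was above every WT library, TF overlapped WT, and TFD replicate 2 was the lowest of all. *S100a9* reached 14.07, 14.39 and 14.17 in WT, 14.36, 14.37 and 14.77 in DF, 13.88, 13.97 and 13.67 in TF, and 13.89 and 12.77 in TFD. DF overlapped WT narrowly, and all TF and TFD libraries were below WT. The fitted difference of *S100a8* was 0.52 ± 0.27 in DF, -0.21 ± 0.27 in TF and -0.74 ± 0.31 in TFD (adjusted p = 0.154, 0.57 and 0.1). For *S100a9* it was 0.30 ± 0.25, -0.36 ± 0.25 and -0.77 ± 0.28 (adjusted p = 0.361, 0.274 and 0.0622). The *S100a8* count per *S100a9* count was 0.791 ± 0.038 in WT, 0.915 ± 0.036 in DF, 0.878 ± 0.039 in TF (SD, n = 3 each) and 0.794 ± 0.067 in TFD (n = 2). Monocytes also express both genes, and a list of 9 monocyte markers took between 0.227% and 0.256% of counts in WT. The list took 0.748% to 0.877% in DF, 0.646% to 0.873% in TF and 0.768% to 0.863% in TFD. The part of monocytes in the levels of *S100a8* and *S100a9* was not tested.

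**Figure D2:**
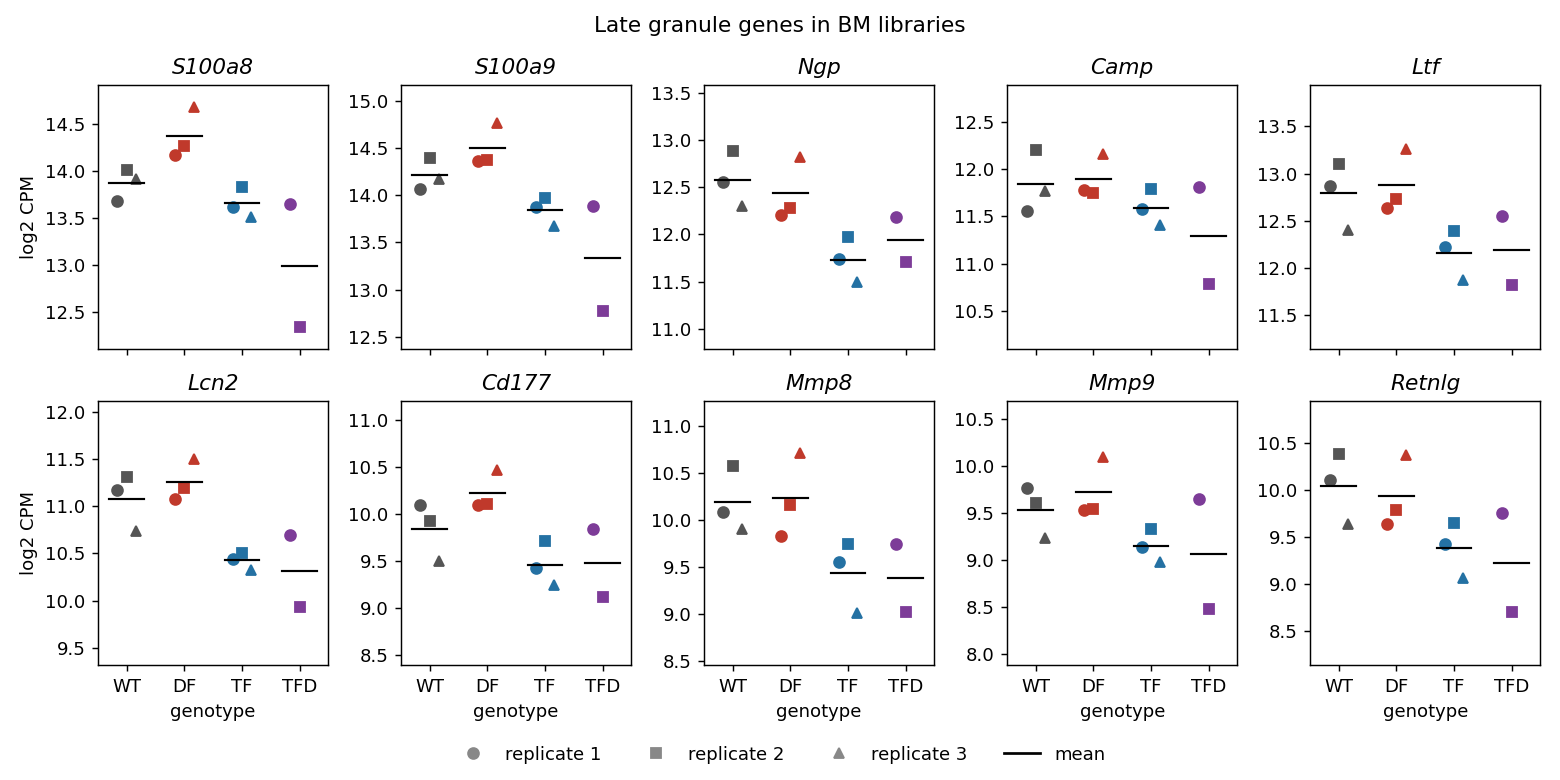
Log2 CPM of each of the 10 late granule genes in every library, by genotype on the horizontal axis, with the replicate number as the symbol and the genotype mean as a line. The vertical axes span the same number of log2 units but start at different levels; TF libraries lie below DF libraries for 8 of the 10 genes, and TFD replicate 2 is below TFD replicate 1 for all 10.

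The comparisons of DF, TF and TFD with WT share the 3 WT libraries. In TF versus WT all 10 late granule genes had negative log2 fold changes, from -0.85 (*Ngp*) to -0.21 (*S100a8*), with a median of -0.52 against 0.02 over all 12175 genes. *Ngp*, *Lcn2* and *Mmp8* fell, which is 3 of 10, and 0 of 10 rose, while 15.6% of all genes tested were called lower and 19.0% higher (edgeR quasi-likelihood test with Benjamini-Hochberg adjustment). DESeq2, the tool of the study, also called 3 lower, but they were *Ngp*, *Lcn2* and *Ltf* (adjusted p = 0.0111 for *Ltf* and 0.0608 for *Mmp8*), against 17.6% of all genes. At an unadjusted p under 0.05 by edgeR the number was 5 of 10, with *Ltf* and *Retnlg* added. The share of all genes was 45.3%, so this count is near the background. In 5 of 10 genes, *Ltf*, *Lcn2*, *Ngp*, *Mmp8* and *S100a9*, every TF library was below every WT library, as were 22.9% of all genes. The number called ranged from 1 to 5 when single libraries were left out. *Ngp* was called in each of these fits. It was the only one called without WT replicate 1, WT replicate 2, TF replicate 1 or TF replicate 3, and *Ltf* and *Retnlg* were added without WT replicate 3 or either TFD library. *Mmp8* was also lost without DF replicate 2, *Lcn2* was lost without TF replicate 2, and *Ltf* was added without DF replicate 3. In a fit of the 8 libraries with few *Xist* reads, 5 were called lower in TF (*Lcn2*, *Ltf*, *Mmp8*, *Ngp* and *Retnlg*).

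In TFD versus WT the fitted differences were also negative for all 10 genes, from -0.78 (*Mmp8*) to -0.33 (*Cd177*), with a median of -0.68 against 0.01 over all genes. *Lcn2* alone fell, 1 of 10, and 0 of 10 rose, against 11.6% of all genes called lower and 14.7% called higher. The 1 of 10 that fell is thus near the background. *Lcn2*, *Ngp*, *Mmp8*, *S100a8* and *S100a9* were below every WT library in both TFD libraries, 5 of 10, as were 23.5% of all genes. DESeq2 called 4 lower (*Lcn2*, *Ngp*, *S100a8* and *S100a9*), against 13.4% of all genes, and limma voom called *Lcn2*, *S100a8* and *S100a9*. The count and the median rested on which TFD library was used. With TFD replicate 2 left out, 0 of 10 were called and the median was -0.29, and with TFD replicate 1 left out 7 were called lower (*Camp*, *Lcn2*, *Mmp8*, *Mmp9*, *Retnlg*, *S100a8* and *S100a9*) and the median was -1.13, where the lone TFD library was assumed to vary like the others. Leaving out WT replicate 1, WT replicate 2 or DF replicate 2 also ended the call of *Lcn2*, and leaving out TF replicate 3 added *Mmp8*. A fit of only the TFD and WT libraries called *Mmp8* and not *Lcn2*, and the libraries with few *Xist* reads gave no call.

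DF versus WT showed no call among the late granule genes. Of the 10, 0 were called higher and 0 lower, against 21.0% and 16.6% of all genes, and 0 had an unadjusted p under 0.05, against 47.3% of all genes. By DESeq2 the count was also 0. Of all genes called, 55.9% were higher with TMM factors and 42.3% with library totals. The log2 fold changes ran from -0.14 (*Ngp*) to 0.52 (*S100a8*, 95% confidence interval -0.08 to 1.11), with a median of 0.13 against 0.05 over all genes. This median was 0.26 without WT replicate 2 and 0.24 without DF replicate 1, and it turned to -0.03 without WT replicate 3 and -0.09 without DF replicate 3. *Cd177* and *S100a8* were above every WT library in every DF library, 2 of 10, against 28.8% of all genes. *S100a8* was called higher in DF when either TFD library was left out of the shared fit, with log2 fold changes of 0.52 without TFD replicate 1 and 0.49 without TFD replicate 2 (adjusted p = 0.0326 and 0.0349).

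The genotypes were also compared with each other. In DF versus TF all 10 late granule genes had positive log2 fold changes, from 0.31 (*Camp*) to 0.84 (*Lcn2*) and a median of 0.72 against 0.02 over all genes. *Lcn2* passed the threshold (0.84 ± 0.21, 1.79-fold higher in DF, adjusted p = 0.033), 1 of 10, against 1.67% of all genes called higher and 4.27% called lower. Of all genes called in this comparison, 28.1% were higher in DF with TMM factors and 13.9% with library totals. *Cd177* (0.76 ± 0.21, adjusted p = 0.0514), *Ngp* (0.71 ± 0.22, adjusted p = 0.0755) and *Mmp8* (0.81 ± 0.27, adjusted p = 0.106) did not pass it, and 8 of 10 had an unadjusted p under 0.05, against 19.0% of all genes. In 8 of 10, all but *Camp* and *Retnlg*, every DF library was above every TF library, and the share among all genes was 13.7%. DESeq2 called 6 of 10 higher (*Cd177*, *Lcn2*, *Ltf*, *Ngp*, *S100a8* and *S100a9*), against 2.70% of all genes. The call of *Lcn2* was lost without any 1 of the DF libraries and without TF replicate 1 or TF replicate 3. Without TF replicate 2, *Cd177* was called as well, and without either TFD library *Cd177*, *S100a8* and *S100a9* were.

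In DF versus TFD, edgeR called 0 of 10 late granule genes higher and 0 lower, and 0% of all genes in either direction. All 10 log2 fold changes were positive, with a median of 0.69 against 0.01 over all genes. *S100a8* had the greatest difference, 1.25 (95% confidence interval 0.56 to 1.94, adjusted p = 0.138), followed by *S100a9* at 1.08 (0.45 to 1.70, adjusted p = 0.149) and *Lcn2* at 0.90 (0.40 to 1.41, adjusted p = 0.138). Of the 10, 6 had an unadjusted p under 0.05, against 14.2% of all genes, and in 7 of 10 every DF library was above both TFD libraries, against 15.0% of all genes. DESeq2 called *Lcn2*, *S100a8* and *S100a9* higher in DF, 3 of 10, against 0.846% of all genes. The size of these differences rested on the TFD library. Without TFD replicate 1, edgeR called 5 (*Cd177*, *Lcn2*, *Mmp9*, *S100a8* and *S100a9*), the median was 1.26 and *S100a8* stood at 2.05, and without TFD replicate 2 it called 0, the median was 0.34 and *S100a8* stood at 0.71. In TF versus TFD, edgeR called 0 of 10 in either direction, against 0.00821% of all genes called higher and 0.00821% lower. At an unadjusted p under 0.05 there were 0 of 10, against 8.77% of all genes. DESeq2 also called 0 of 10, where it called 131 of all genes. The log2 fold changes of TF over TFD ran from -0.22 (*Ngp*, 95% confidence interval -0.74 to 0.30) to 0.52 (*S100a8*, -0.15 to 1.19), so differences of that size between TF and TFD were not resolved. Of the 10 values, 4 were negative, and their median was 0.05. The direction turned with the TFD library, since 0 were negative without TFD replicate 1 (median 0.59) and 9 without TFD replicate 2 (median -0.32). Without TF replicate 2 the median was -0.09, without TF replicate 3 it was 0.17, and in the libraries with few *Xist* reads 8 were negative (median -0.22).

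**Figure D3:**
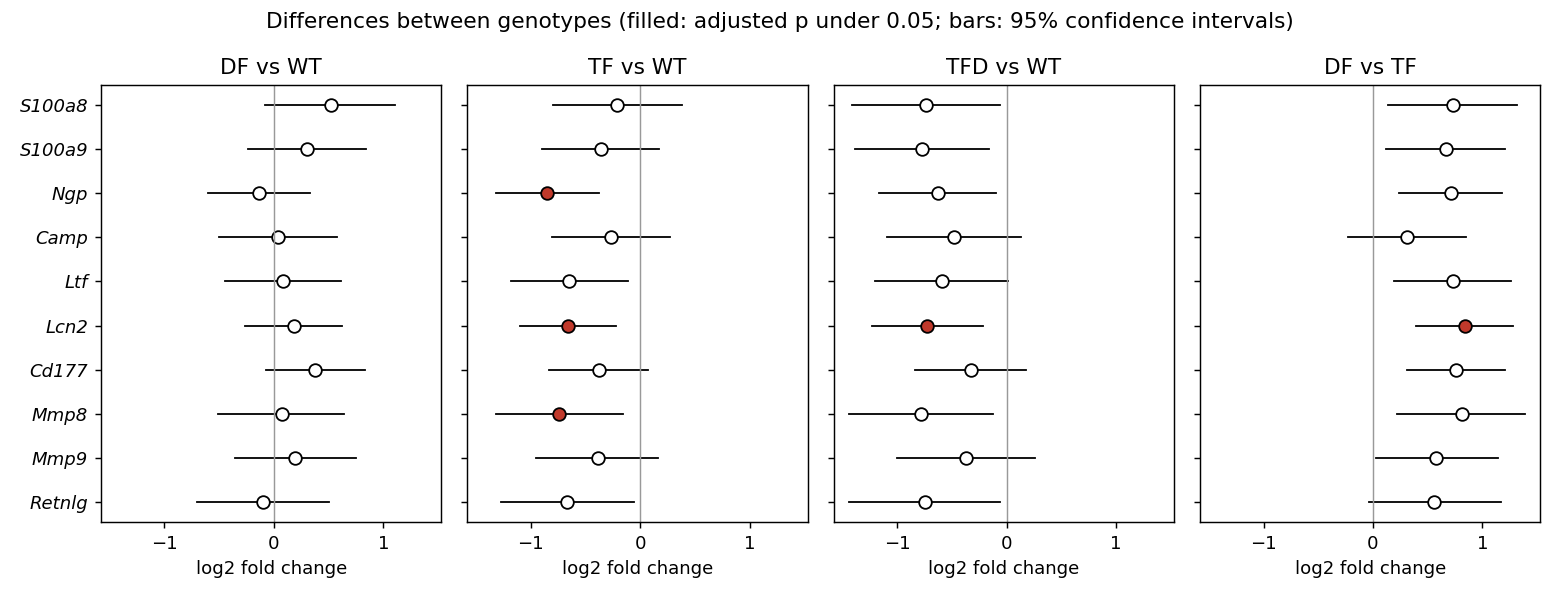
Log2 fold changes of the 10 late granule genes in 4 panels (DF against WT, TF against WT, TFD against WT and DF against TF), with 95% confidence intervals as bars, and filled points where the adjusted p was under 0.05. All points lie below 0 in TF and TFD versus WT and above 0 in DF versus TF; the filled points are *Ngp*, *Lcn2* and *Mmp8* in TF and *Lcn2* in TFD and in DF versus TF.

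The late granule genes varied together across libraries. Over the 45 pairs of the 10 genes, Pearson's r across the 11 libraries ran from 0.646 to 0.986 with a median of 0.872. After the genotype means were removed, it ran from 0.699 to 0.990 with a median of 0.861. These are descriptions over libraries that share depth and normalization. Averaged over the 10 genes after each was standardized, the level was highest in DF replicate 3 (1.48) and WT replicate 2 (0.98) and lowest in TFD replicate 2 (-1.89) and TF replicate 3 (-1.09). The 8 other genes most like this average over the 11 libraries were *Trem3* (r = 0.985), *Pilrb2* (0.982), *Sept5* (0.977), *B430306N03Rik* (0.977), *Pilra* (0.973), *Fbxo10* (0.968), *Mcemp1* (0.963) and *Ccr1* (0.959). Their levels were far below those of the late granule genes, at mean log2 CPM between 4.65 (*Fbxo10*) and 7.77 (*Ccr1*). They were chosen for this likeness in the same libraries, so their differences between genotypes are not given in this paragraph. *Mcemp1* is also on the list of blood-stage neutrophil genes and is counted there.

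Since the 10 genes moved together, the 250 bases upstream of their start sites were searched for short motifs of myeloid transcription factors on both strands. RefSeq promoter sequence (GRCm38.p6) was matched for 9 of 10 genes, all but *Mmp9*. The C/EBP motif TTGCNNAA (TTNNGCAA on the other strand) was present in 6 of 9, *Lcn2*, *Ltf*, *Mmp8*, *Ngp*, *Retnlg* and *S100a9*, and in 9.56% of 32851 mouse promoter windows of the same length. Among the 11773 windows of genes in the deposited table it was present in 7.81%. The ETS motif AGGAAG was found in 5 of 9, against 29.5% of all windows, and the RUNX motif TGTGGT in 1 of 9, *S100a9*, against 14.0%. The motif TATAAA, chosen after these sequences had been read, was found in 2 of 9, *Cd177* and *S100a8*, against 12.4%. No 2 matches overlapped. A match describes the letters of the window and no more. Printed here are the windows of the 3 genes called lower in TF, then those of *S100a8* and *S100a9*, the 2 most abundant genes. Each is 5′ to 3′ on the strand of its gene and ends at the base before the start site, with the matches to these 4 motifs in capitals. A match on the other strand appears as the reverse complement.
Ngp chr9:110419558-110419807 plus strand: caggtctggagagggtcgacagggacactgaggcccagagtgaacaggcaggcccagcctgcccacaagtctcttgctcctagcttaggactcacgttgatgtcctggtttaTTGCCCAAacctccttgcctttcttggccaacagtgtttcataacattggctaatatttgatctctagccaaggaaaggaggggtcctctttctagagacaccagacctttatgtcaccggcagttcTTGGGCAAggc
Lcn2 chr2:32387740-32387989 minus strand: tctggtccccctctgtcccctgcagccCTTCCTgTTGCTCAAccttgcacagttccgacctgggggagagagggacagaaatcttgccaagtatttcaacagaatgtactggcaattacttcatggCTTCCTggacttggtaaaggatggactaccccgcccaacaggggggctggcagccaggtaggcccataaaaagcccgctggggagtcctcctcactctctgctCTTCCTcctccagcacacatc
Mmp8 chr9:7558179-7558428 plus strand: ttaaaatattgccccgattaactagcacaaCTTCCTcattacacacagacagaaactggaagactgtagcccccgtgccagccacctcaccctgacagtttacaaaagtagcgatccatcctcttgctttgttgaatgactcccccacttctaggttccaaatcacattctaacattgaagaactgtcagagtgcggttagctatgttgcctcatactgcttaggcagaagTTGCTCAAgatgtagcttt
S100a8 chr3:90668821-90669070 plus strand: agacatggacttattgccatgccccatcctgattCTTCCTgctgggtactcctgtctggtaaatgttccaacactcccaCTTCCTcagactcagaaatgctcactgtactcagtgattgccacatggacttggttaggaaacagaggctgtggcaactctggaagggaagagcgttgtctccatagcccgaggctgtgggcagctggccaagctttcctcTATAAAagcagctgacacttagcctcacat
S100a9 chr3:90695722-90695971 minus strand: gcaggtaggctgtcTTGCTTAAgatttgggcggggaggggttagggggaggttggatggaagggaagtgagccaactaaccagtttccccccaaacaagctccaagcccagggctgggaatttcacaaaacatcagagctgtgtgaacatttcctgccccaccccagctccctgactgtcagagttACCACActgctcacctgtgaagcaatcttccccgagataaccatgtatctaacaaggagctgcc

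The C/EBP matches in these windows began 138 and 11 bases before the start of *Ngp*, 216 before *Lcn2*, 19 before *Mmp8* and 236 before *S100a9*, and none was found in the window of *S100a8*. In the *Lcn2* window an ETS match, beginning 223 bases before the start, stands next to the C/EBP match. *Ltf* held the C/EBP motif 75 bases before its start and *Retnlg* 246 bases before, and the windows of *Camp* and *Cd177* held no match to the C/EBP motif.

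Transcription factors of the granulocyte and monocyte lineages were measured in the same libraries. *Cebpe* was not called in DF (0.43 ± 0.25, adjusted p = 0.196), TF (-0.26 ± 0.25, adjusted p = 0.453) or TFD (-0.40 ± 0.29, adjusted p = 0.331) versus WT. *Gfi1* had values of 0.38 ± 0.19, -0.25 ± 0.19 and -0.05 ± 0.21 in the same order (adjusted p = 0.123, 0.328 and 0.883). Of 9 transcription factors on this list, 5 rose and 1 fell in DF, 3 rose and 1 fell in TF, and 2 rose and 1 fell in TFD. Among all genes the shares called higher were 21.0%, 19.0% and 14.7% and those called lower 16.6%, 15.6% and 11.6% in the same order, so the 1 of 9 that fell and the 2 of 9 that rose in TFD are near the background. *Cebpa*, which acts before the granulocyte stage, rose by 1.53, 1.27 and 1.52 on the log2 scale in DF, TF and TFD, and *Irf8*, a factor of the monocyte lineage, by 1.31, 1.71 and 1.43. Both are counted among the factors that rose in each genotype, and in TFD no other factor on the list rose. *Klf5* fell in each mutant genotype (-0.69, -1.13 and -0.79).

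Genes that mark the primary granule stage, an earlier one, were all called higher in DF. Not every gene of this list encodes a granule protein, and the part of other myeloid cells in their levels was not tested. The list of 7 (*Mpo*, *Elane*, *Prtn3*, *Ctsg*, *Prss57*, *Ms4a3* and *Ctsc*) had 7 of 7 called higher in DF (21.0% of all genes were), 2 of 7 in TF (19.0%) and 3 of 7 in TFD (14.7%), with median log2 fold changes of 0.93, 0.31 and 0.56. In TF, *Elane* and *Ms4a3* stood at -0.19 and -0.05. *Ctsg*, the serine protease cathepsin G, rose by 1.23 in DF, 0.61 in TF and 0.66 in TFD on the log2 scale. *Ctsc*, which activates these proteases, rose by 1.08, 0.73 and 0.81, and *Mpo*, myeloperoxidase, rose by 0.93 in DF and 0.85 in TFD and stood at 0.31 in TF (adjusted p = 0.277). As a description of the balance, the mean log2 CPM of the 10 late granule genes minus that of the 7 primary granule genes was 3.54, 3.88 and 3.34 in WT, 2.47, 2.47 and 3.47 in DF, 2.78, 2.80 and 2.86 in TF, and 2.67 and 2.25 in TFD. The means were 3.59 ± 0.27 (SD, n = 3) in WT, 2.81 ± 0.58 (n = 3) in DF, 2.82 ± 0.04 (n = 3) in TF and 2.46 ± 0.30 (n = 2) in TFD. All TF and TFD libraries were below WT, and DF replicate 3 was inside the WT range. The lower balance came with different levels. In DF the late genes had a mean of 11.74 ± 0.30 against 11.60 ± 0.24 in WT while the primary genes stood at 8.94 ± 0.29 against 8.01 ± 0.05, and in TF the late genes had a mean of 11.09 ± 0.22 while the primary genes stood at 8.27 ± 0.25.

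**Figure D4:**
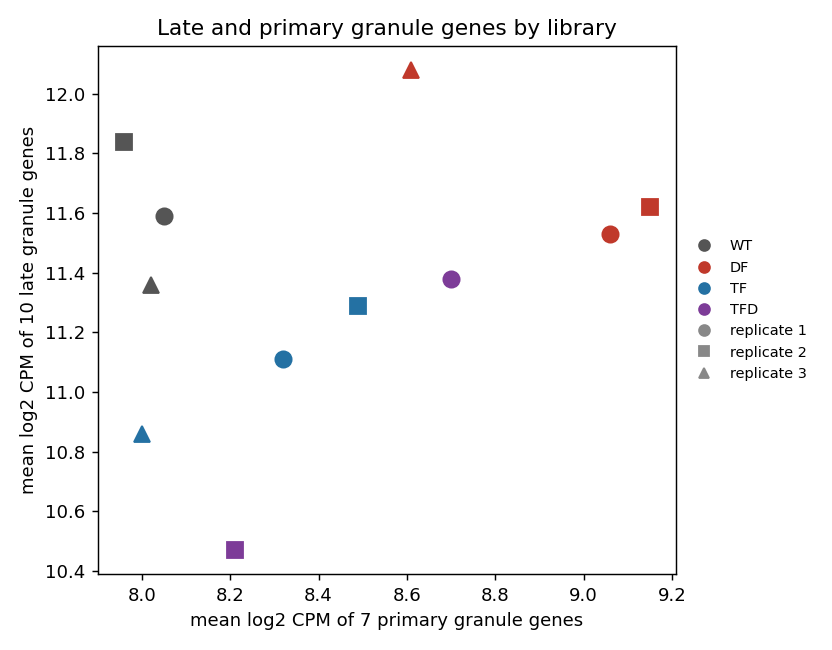
Mean log2 CPM of the 10 late granule genes (vertical axis) against that of the 7 primary granule genes (horizontal axis), 1 point per library, with genotype as the colour and replicate as the symbol. The 3 WT libraries lie at 7.96 to 8.05 on the horizontal axis, the DF libraries at 8.61 to 9.15, and TFD replicate 2 is lowest on the vertical axis at 10.47.

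Other genes of the granule stages moved apart from each other. Of 12 listed genes, 11 were tested, and 6 rose and 0 fell in DF, 1 rose and 3 fell in TF, and 0 rose and 2 fell in TFD, with median log2 fold changes of 0.49, -0.32 and -0.29. The shares of all genes called higher were 21.0%, 19.0% and 14.7% in DF, TF and TFD, and those called lower were 16.6%, 15.6% and 11.6%. The 1 of 11 that rose in TF is thus below the background, and the 2 of 11 that fell in TFD is close to it. Not every gene of this list is confined to neutrophils. The part of monocytes in these counts was not tested. *Cyba*, a subunit of the NADPH oxidase, rose in DF and TF (0.89 and 0.57). *Fcnb*, encoding ficolin B, fell in TF (-1.49 ± 0.53, adjusted p = 0.0446), where its libraries ran from 3.42 to 6.92 log2 CPM, and *Olfm4*, encoding a glycoprotein of specific granules in some neutrophils, fell in TFD (-1.13 ± 0.24, adjusted p = 0.00477). The others that fell, named after their values were seen, were *Chil3* in TF (-0.65) and *Pglyrp1*, a peptidoglycan-binding granule protein, in TF and TFD (-0.72 and -0.51). In DF versus TF, *Chil3* (1.22), *Hp* (0.81) and *Pglyrp1* (0.60) were higher in DF, 3 of 11 against 1.67% of all genes, where *Hp*, also named after its value was seen, encodes haptoglobin.

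Genes of the stage after the late granules, which are switched on as neutrophils become ready to enter the blood, were measured on a list of 12. Of these, 0 rose in any mutant versus WT, and 2 fell in DF (16.6% of all genes did), 8 in TF (15.6%) and 7 in TFD (11.6%), with median log2 fold changes of -0.04, -0.62 and -0.83. *Cxcr2*, the chemokine receptor that draws neutrophils out of the BM, fell in TF (-1.18 ± 0.21, adjusted p = 0.0013) and TFD (-0.96 ± 0.24, adjusted p = 0.0112) and stood at -0.44 ± 0.21 in DF (adjusted p = 0.117). *Clec4d*, a lectin receptor, fell by 1.56, 1.74 and 1.65 in DF, TF and TFD, and *Il1r2*, the decoy receptor of interleukin 1, by 0.69, 1.34 and 1.41. In DF versus TF, *Mmp25*, *Mcemp1*, *Padi4* and *Fpr2*, 4 of 12, named after their values were seen, were higher in DF, with values between 0.58 and 0.77, against 1.67% of all genes. *Mcemp1* is counted in this list although its likeness to the late granule genes was found in the same libraries, so its calls are not independent of theirs.

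**Figure D5:**
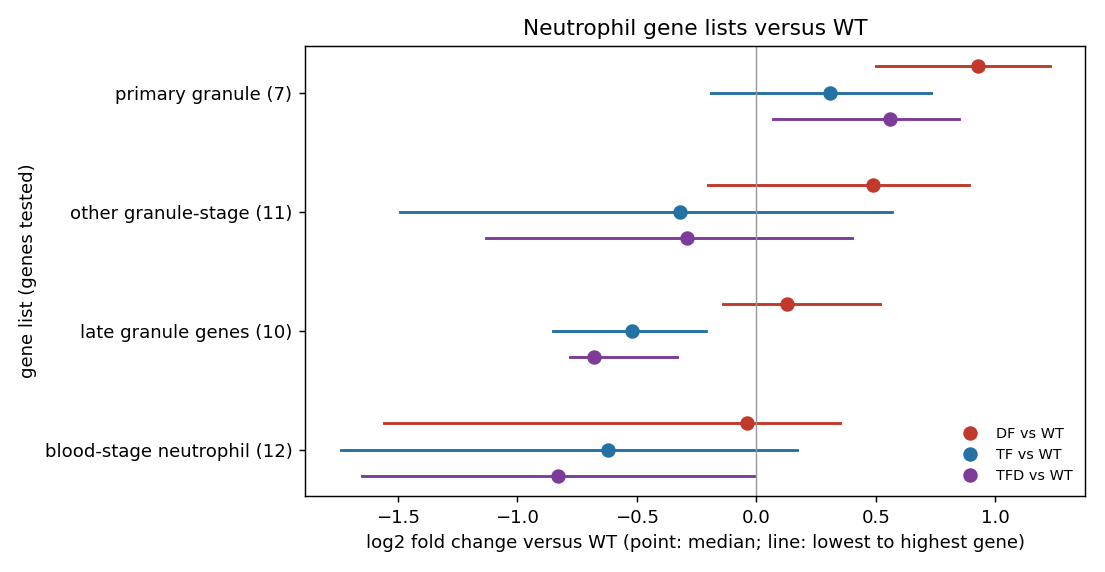
Log2 fold changes versus WT of 4 neutrophil gene lists, with the number of genes tested in brackets, the median as a point and the lowest to highest gene as a line, by mutant genotype. The list of other granule-stage genes does not stand for a stage between its neighbours. For the late granule genes the medians are 0.13 in DF, -0.52 in TF and -0.68 in TFD.

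Genes for inhibitors, partners and receptors of the granule proteins were examined on a list of 10, of which 8 were tested. *Reck* and *Timp2*, inhibitors of matrix metalloproteinases such as MMP8 and MMP9, both fell in TF (-1.39 and -0.52) and TFD (-0.74 and -0.63), and *Reck* was higher in DF than in TF (1.17 ± 0.17, adjusted p = 0.0036). *Tlr4*, a receptor to which calprotectin binds, fell in TF and TFD (-0.47 and -0.82). *Itgam*, the alpha chain of the integrin Mac-1, fell in TF (-0.53). These 2 were named after their values were seen. *Lrp1*, a scavenger receptor that takes up lactoferrin and MMP9, rose in DF, TF and TFD by 1.87, 1.48 and 1.93. The list thus had 1 gene higher and 0 lower in DF, 1 and 4 in TF, and 1 and 3 in TFD. The 1 of 8 called higher is no more than the share of all genes in any genotype (21.0%, 19.0% and 14.7%), and the shares called lower were 16.6%, 15.6% and 11.6%.

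Other members of the S100 family, small calcium-binding proteins like *S100a8* and *S100a9*, were examined beside them. Of 6 tested, 5 rose and 1 fell in DF, 2 rose and 1 fell in TF, and 3 rose and 0 fell in TFD. Of all genes, 21.0%, 19.0% and 14.7% were called higher and 16.6%, 15.6% and 11.6% lower, so the 1 of 6 that fell in DF and in TF is near the background. *S100a4* rose by 1.82, 1.92 and 1.59 in DF, TF and TFD and *S100a10* by 1.5, 1.47 and 1.33. *S100a11* fell in DF and TF (-0.75 and -1.01).

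Markers of other BM cells moved with the genotypes beside the late granule genes. Of 9 monocyte genes, 8 rose in DF, 8 in TF and 7 in TFD, and their summed share of counts was 0.227% to 0.256% in WT, 0.748% to 0.877% in DF, 0.646% to 0.873% in TF and 0.768% to 0.863% in TFD. *Ccr2*, *Cx3cr1* and *Ms4a6c* led this list, with *Ccr2* at 2.47, 2.61 and 2.35. All 8 B cell genes fell in each mutant genotype, from 0.0454% to 0.0540% of counts in WT to at most 0.00780%, with *Pax5*, *Igll1* and *Vpreb1*, the last 2 named after their values were seen, at 0 counts in at least 1 mutant library. *Ebf1*, a transcription factor of early B cells, was among those that fell. Of 6 erythroid genes, 6 fell in DF, 4 in TF and 4 in TFD, led by *Klf1* (-4.51, -1.48 and -2.78, where TF overlapped WT) and *Epor*. Of 6 macrophage genes, 6, 1 and 3 fell, and *C1qa*, *Mertk* and *C1qb* fell in DF, the first by 2.34 on the log2 scale. Of 7 T and NK cell genes 4, 1 and 3 fell, with *Klrb1c* down in all 3 mutant genotypes, *Cd8a* in DF and TFD and *Cd3e* in DF. Of 5 genes of eosinophils, basophils and mast cells, *Cpa3* fell in TF (-0.95), and *Epx* and *Mcpt8* did not pass the test. Of 4 stem and progenitor genes 3, 2 and 3 rose, and they were *Cd34* (1.96, 1.86 and 1.79), *Flt3* and, in DF and TFD, *Meis1*. Of 4 megakaryocyte genes, *Pf4* fell in DF and *Ppbp* rose in TFD, where 1 library (2.33 log2 CPM) lay inside the WT range of 1.70 to 2.67 and the other stood at 4.62, and *Gp9* did not pass the test in any. The 1 of 6 macrophage genes and the 1 of 7 T and NK cell genes that fell in TF are near the background. The calls among the megakaryocyte genes and among the eosinophil, basophil and mast cell genes are near it as well. Levels on the CPM scale are shares of a library, and the part of these cells in the differences of the late granule genes was not tested.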

How the data were processed

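RNA was extracted from BM of 4 genotypes of mice, depleted of globin mRNA and made into stranded total RNA libraries. FastQC was used for quality control, STAR for alignment to mm10, and featureCounts for counting unique alignments on refGene. Tool versions, and whether counting used strand, are not given in the sources used here. What the authors deposited are raw counts for 12199 genes, already filtered by them on CPM. The deposited log2 CPM values carry TMM factors: edgeR's log2 CPM with a prior of 0.25 counts matched them to within 5e-09. The exon length of each gene, another deposited column, was used only for RPKM. Of the 12 labelled samples, TFD replicate 3 was not analysed here. No 2 libraries were alike (chi-square per degree of freedom of 10.3 or more over 55 pairs).

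The 12175 genes that exceeded 0.5 CPM in more than 3 libraries entered the quasi-likelihood F test of edgeR 4.0.16 in R 4.3.3, using TMM factors and a mean per genotype. Benjamini-Hochberg adjustment ran over all of these genes, with 0.05 as the threshold for a call. Standard errors came from the F statistic. The study itself used DESeq2, run here as an alternative (version 1.42.0) together with limma voom (3.58.1), other scaling factors, other filters, fits of only the groups compared, a replicate block, a covariate for 10000 or more *Xist* reads, and each library left out in turn. A fit of libraries with fewer *Xist* reads was added after the data were seen. The procedure was tested on simulated data. Depths of 8274153 to 15900904 counts make counting error small for the late granule genes, so the 2 or 3 libraries per genotype limit the precision.

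The late granule genes, the gene lists and the motifs were chosen with earlier results of these data known. Named are all 10 late granule genes, the 3 genes of each other list with the largest absolute mean log2 fold change over DF, TF and TFD versus WT, *Cebpe*, *Gfi1* and the 8 genes most correlated with the late granule genes. Some genes under this rule are not reported here. Genes named outside this rule are said to be so in the text, apart from the rest of the primary granule list, the targeted genes and *Ddx3y*. Figures were drawn with matplotlib 3.10.9 in Python 3.11.15.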

Additional observations from a re-analysis of the deposited data

How the results depend on the processing

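The precision of these results is limited by 2 or 3 libraries per genotype, and in TFD by 2 libraries that differed. In TF versus WT the number of late granule genes called lower was 5 with only the groups compared, 5 with the *Xist* term and 5 in libraries with few *Xist* reads, and it ranged from 1 to 5 with single libraries left out; *Ngp* was called in every alternative run. In TFD versus WT, 4 were called lower by DESeq2, 3 by limma voom, 5 with the *Xist* term and 0 in libraries with few *Xist* reads, where TFD had 1 library, with a range of 0 to 7 when single libraries were left out. For genes called higher in DF versus WT that range was 0 to 1. In DF versus TF, 6 late granule genes were called higher by DESeq2, 4 with only the groups compared, 2 with the *Xist* term and 2 in libraries with few *Xist* reads, with a range of 0 to 4. In DF versus TFD, 3 were called by DESeq2, with a range of 0 to 5. Over all genes, DF versus TF had 723 calls, 474 by limma voom and from 169 to 934 with single libraries left out. DF versus TFD had 0 calls (1727 genes at an unadjusted p under 0.05), 258 by DESeq2, 138 with only the groups compared, 149 in libraries with few *Xist* reads, and from 0 to 387 with single libraries left out. TF versus TFD had 2 calls, 131 by DESeq2, 0 with only the groups compared, 22 with the *Xist* term, 15 in libraries with few *Xist* reads, and from 2 to 75 with single libraries left out.

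The small DF versus WT differences changed sign in some settings without passing the threshold. *Ltf* stood at -0.01 with library totals, -0.09 with the *Xist* term and -0.13 in libraries with few *Xist* reads. *Lcn2* stood at -0.01 in libraries with few *Xist* reads. *Camp* stood at -0.01 by DESeq2 and -0.01 with RLE factors, -0.05 with library totals, 0 with only the groups compared, -0.11 with the *Xist* term and -0.05 in libraries with few *Xist* reads. *Mmp8* stood at -0.02, -0.12 and -0.11 with library totals, the *Xist* term and few *Xist* reads. With single libraries left out the DF versus WT values ranged from -0.17 to 0.24 for *Ltf*, -0.01 to 0.30 for *Lcn2*, -0.14 to 0.24 for *Camp*, -0.39 to 0.02 for *Ngp*, -0.24 to 0.28 for *Mmp8*, -0.05 to 0.28 for *Mmp9* and -0.38 to 0.08 for *Retnlg*, and *Mmp9* in TFD versus WT ranged from -1.07 to 0.10. The causes of these shifts were not tested. The filterByExpr setting kept all 12199 genes and equals no filter.

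The replicate numbers did not pair the libraries, since deviations of libraries with the same number correlated between -0.299 and 0.247 and exceeded 0.1 in 3 of 15 pairs. With the replicate block, late granule genes called lower numbered 2 in TF (*Lcn2* and *Ngp*) and 0 in TFD, 0 were called higher in DF versus TF, and DF versus TFD had 42 calls over all genes.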
